A study of Homo sapiens with 9 samples.

Results

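The genes described here move ions and water across the plasma membrane and so set cell volume. They are 9 genes, chosen by name: LRRC8A, LRRC8B, LRRC8C and LRRC8D (subunits of the volume-regulated anion channel), SLC12A2 and SLC12A4 (cation-chloride cotransporters), the kinase WNK1, and the aquaporins AQP3 and AQP5. The members, and the wider lists described below, were chosen with earlier results of these data known. Their shares of called genes, set beside those of all genes, are therefore descriptions only. The files listed 60664 genes. Of these, 18264 had enough counts to be tested, and all 9 members were among them. RNA was sequenced on day 6 from MDA-MB-231, a line of human breast cancer cells, in 3 samples for each of 3 conditions. Scramble control (SC) cells were kept in medium of 0.77 cP or of 8 cP, and cells carrying a short hairpin RNA against the calcium channel gene TRPV4 (shTRPV4) were kept in medium of 8 cP. The viscosity of the medium was raised with methylcellulose, and the hairpins, scramble included, were delivered stably by lentivirus under puromycin selection, so every group carries a vector. Each group is thus a population of 1 cell line with 1 hairpin, and a knockdown group at 0.77 cP was not analysed here. The labels do not say whether replicates were separate cultures, so p-values measure only the spread between these samples.

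A cell that swells loses chloride and organic osmolytes through LRRC8 channels and potassium with chloride through cotransporters such as KCC1 (SLC12A4), and water follows. A cell that shrinks, or that is driven to swell, takes up sodium, potassium and chloride through NKCC1 (SLC12A2). WNK kinases act as switches between these directions: through the kinases SPAK and OSR1 they turn NKCC1 on and KCC cotransporters off. The study asked how cells sense viscous fluid, with swelling placed ahead of TRPV4, so that the RNA of this machinery after days in viscous medium bears on the setting in which that sensing takes place.

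The sequence just before the start of each gene divided the members. The 250 bases before the RefSeq start (GRCh38.p14) were searched on both strands for TATAAA and TATATA, forms of the TATA box, for CCAAT, and for GGAATG, the core of TEAD sites. For SLC12A4 that start (67968694, minus strand) is not the outermost start, which GENCODE places at 67969601. The bases searched for SLC12A4 thus lie inside the gene. TGACGTCA, the cyclic AMP response element, was added after the sequence of LRRC8A had been seen. TATAAA was found in AQP3 alone among the members, and in 10.8% of 34943 promoters of this length. TATATA was found in AQP5 alone, and in 3.74% of all promoters. The letters begin 29 bases before the start of AQP3 and 30 bases before that of AQP5. CCAAT occurred in LRRC8D alone (32% of all promoters), TGACGTCA in LRRC8A alone (1.63%), and GGAATG in no member (11.9%). The 4 sequences that hold a match are shown because they hold all the matches found among the members. Each is the 80 bases before the start, read 5′ to 3′ on the gene's strand, with the matched letters in capitals (in LRRC8D the match is CCAAT read on the other strand). They lie at chr9:33447597-33447676 (minus strand), chr12:49961792-49961871 (plus strand), chr9:128882053-128882132 (plus strand) and chr1:89820934-89821013 (plus strand).
AQP3: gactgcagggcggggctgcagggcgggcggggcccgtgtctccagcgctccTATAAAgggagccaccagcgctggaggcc
AQP5: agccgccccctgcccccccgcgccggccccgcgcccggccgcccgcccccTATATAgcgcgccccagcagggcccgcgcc
LRRC8A: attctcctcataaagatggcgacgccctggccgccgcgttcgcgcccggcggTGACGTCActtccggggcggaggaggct
LRRC8D: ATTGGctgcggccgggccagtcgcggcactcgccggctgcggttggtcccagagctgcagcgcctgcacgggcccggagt
The match of letters is a description and was not tested as a site.

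TRPV4, the target of the hairpin, was counted 40, 28 and 54 times in SC 0.77 cP cells (replicates 1 to 3, the order used throughout), 64, 45 and 24 times in SC 8 cP cells, and 7, 1 and 13 times in shTRPV4 cells. The shTRPV4 samples were lower than every other sample. Its log2 fold change in shTRPV4 cells against SC 8 cP cells was -2.51 ± 0.49 (SE, edgeR adjusted p = 0.00219). Samples held between 64571681 and 103518036 counts. The 95% intervals of fold changes come from the edgeR fit and take in the spread between samples. VIM, CD44, EGFR and KRT18, kept by this line, summed to between 2197 and 2408 CPM, counts scaled to a common library total. Of genes listed as scarcely made by it, EPCAM was measured at a mean of 18.1 to 19.0 CPM. Marker sums of other cells stayed at or under 7.53 CPM.

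Levels were compared between genes as CPM per kilobase of exon. In SC 0.77 cP cells LRRC8A stood highest, at 43.7 ± 0.861 (SD, n = 3) CPM per kb. SLC12A4 followed at 9.70 ± 0.405, WNK1 at 7.53 ± 0.362 and LRRC8D at 4.62 ± 0.431 CPM per kb. AQP3 at 2.39 ± 0.298 and SLC12A2 at 2.04 ± 0.176 CPM per kb overlapped in their samples. LRRC8C at 1.68 ± 0.101, AQP5 at 0.388 ± 0.107 and LRRC8B at 0.220 ± 0.0207 CPM per kb came last. Apart from this overlap, neighbours in the order did not overlap in their samples. AQP5, at 9 to 69 counts per sample, was measured with the least precision.

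**Figure D1:**
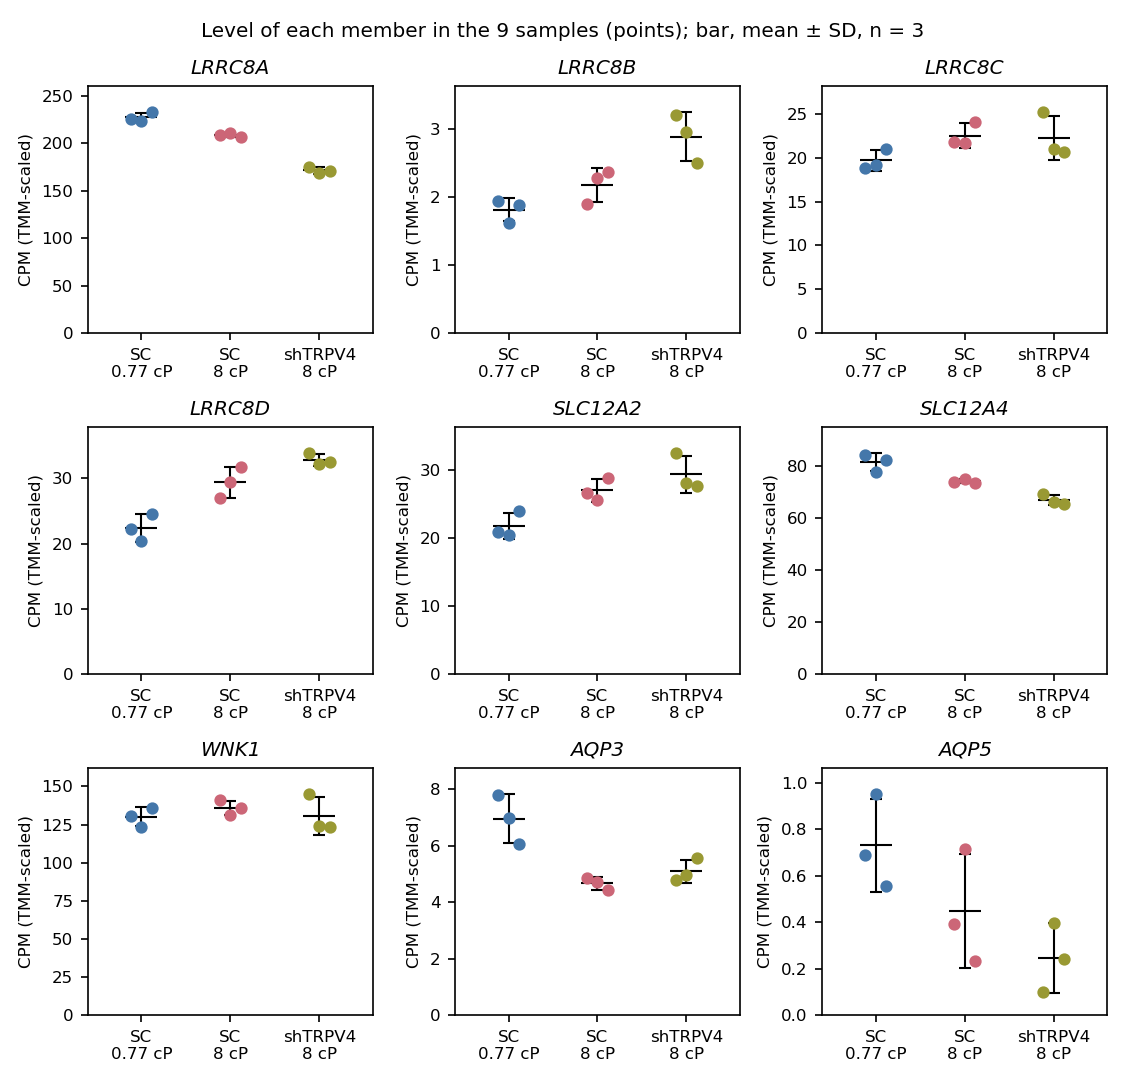
Level of each of the 9 members in CPM (TMM-scaled; vertical axes start at 0) in SC 0.77 cP cells, SC 8 cP cells and shTRPV4 8 cP cells. Points are samples, horizontal bars are means and error bars are SD (n = 3). LRRC8A and SLC12A4 step down from group to group, LRRC8D is higher in each 8 cP sample than in each 0.77 cP sample, and AQP3 is lower in each 8 cP sample.

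The first comparison asked what viscous medium did to control cells. After growth at 8 cP, SC cells held more LRRC8D and SLC12A2 RNA and less AQP3, LRRC8A and SLC12A4 RNA than SC 0.77 cP cells. Of the 9 members, 5 passed the test (edgeR quasi-likelihood, Benjamini-Hochberg adjusted p below 0.05), against 19.3% of all genes tested. A rise was called for 2 (9.57% of all genes) and a fall for 3 (9.69% of all genes). The median log2 fold change of the members was 0.06, against -0.0065 for all genes.

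LRRC8D, the subunit that favours passage of organic osmolytes, was at 22.2, 20.4 and 24.6 CPM in SC 0.77 cP cells. At 8 cP it was at 27.0, 29.5 and 31.8 CPM. The groups did not overlap, and the log2 fold change was 0.39 ± 0.071 (SE, 95% interval 0.24 to 0.54, edgeR adjusted p = 0.00233). SLC12A2, whose product NKCC1 loads cells with salt, was at 20.9, 20.5 and 23.9 CPM at 0.77 cP and at 26.6, 25.6 and 28.8 CPM at 8 cP. Again no samples overlapped, with a log2 fold change of 0.31 ± 0.076 (SE, 95% interval 0.15 to 0.47, adjusted p = 0.0112). This call was lost on leaving out SC 0.77 cP replicate 1, SC 0.77 cP replicate 2 or SC 8 cP replicate 3 (adjusted p of at most 0.0609).

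AQP3, a channel for water and glycerol, moved the most of the called members. It was at 7.80, 7.00 and 6.07 CPM at 0.77 cP and at 4.85, 4.71 and 4.43 CPM at 8 cP, without overlap. The fall was 32.8% in the fit, a log2 fold change of -0.57 ± 0.10 (SE, 95% interval -0.79 to -0.36, adjusted p = 0.00192). The calls for AQP3 and LRRC8D held in all 16 alternative analyses. The scant markers of other cells fell in the same comparison: those of leukocytes summed to between 5.41 and 6.50 CPM at 0.77 cP and between 3.88 and 4.66 CPM at 8 cP, and those of endothelium to between 4.0 and 6.27 and between 2.50 and 3.11 CPM. Those of fibroblasts summed to between 6.37 and 7.53 and between 4.55 and 5.57 CPM. CDH5 and DCN had at most 3 counts in every sample, and the part of these markers in the fall of AQP3 was not tested.

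LRRC8A, the subunit that every functional channel needs, was at 226, 224 and 233 CPM at 0.77 cP and at 209, 211 and 207 CPM at 8 cP. The samples did not overlap, and the log2 fold change was -0.12 ± 0.040 (SE, adjusted p = 0.0413). SLC12A4 (KCC1), which extrudes salt, was at 84.3, 77.7 and 82.4 CPM at 0.77 cP and at 74.0, 75.1 and 73.5 CPM at 8 cP, with a log2 fold change of -0.13 ± 0.045 (SE, adjusted p = 0.0478). Both calls sit close to the threshold. For LRRC8A the call was lost on leaving out any SC sample or shTRPV4 replicate 2, and for SLC12A4 on leaving out any sample except SC 0.77 cP replicate 2 and shTRPV4 replicate 1.

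The direction of the called members' changes ran with GC content. Across all genes, which are not independent replicates, the Spearman correlation of log2 fold change with GC was -0.20. Transcripts of members that were higher at 8 cP are AT-rich: 42.8% GC for LRRC8D and 41.2% for SLC12A2. Those that were lower are GC-rich: 58.0% for LRRC8A, 60.6% for SLC12A4 and 56.4% for AQP3. Over all genes the median log2 fold change ran from 0.046 in the lowest of 5 GC bins to -0.093 in the highest. When the trend with GC was removed from every sample, in an analysis added after seeing the data, 3 members passed. LRRC8A came to -0.062 (adjusted p = 0.299) and SLC12A4 to -0.056 (adjusted p = 0.397). LRRC8D (0.36, adjusted p = 0.00395), SLC12A2 (0.27, adjusted p = 0.0240) and AQP3 (-0.52, adjusted p = 0.00321) stayed past the threshold.

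**Figure D2:**
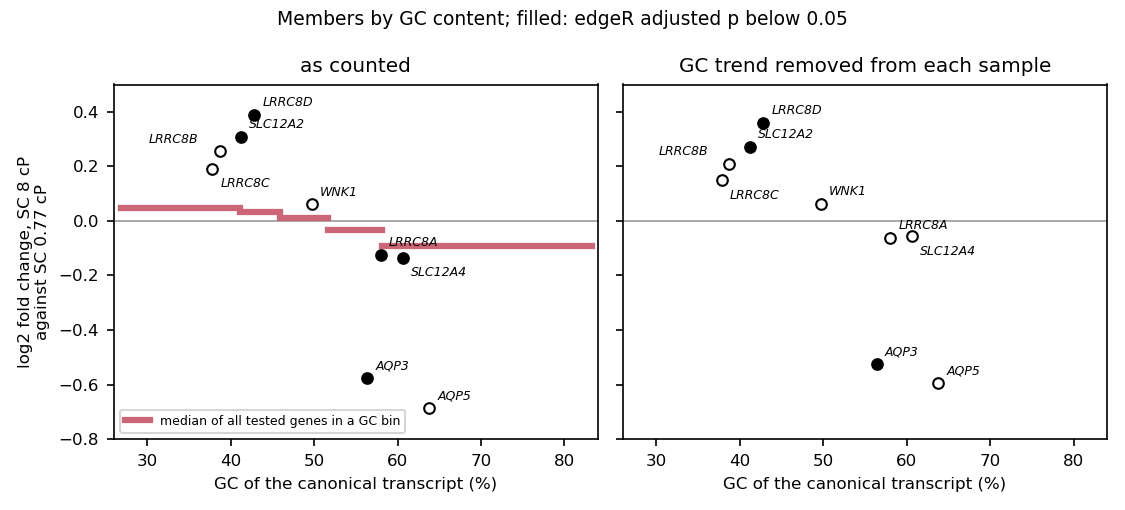
Log2 fold change of the 9 members in SC 8 cP cells against 0.77 cP, plotted on the GC content of their canonical transcript, as counted (left) and with the GC trend of each sample removed (right). Filled points have an edgeR adjusted p below 0.05 and bars give the median of all tested genes in each of 5 GC bins. LRRC8A (-0.12) and SLC12A4 (-0.13) lie below the bars of their bins (-0.034 and -0.093). Both turn open on the right, while LRRC8D, SLC12A2 and AQP3 stay filled.

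LRRC8B, LRRC8C, WNK1 and AQP5 did not pass the test in this comparison. LRRC8C had 1777, 1231 and 2164 counts at 0.77 cP and 2152, 2091 and 2190 counts at 8 cP. Scaled, its samples did not overlap, with a log2 fold change of 0.19 (95% interval 0.026 to 0.36, adjusted p = 0.0982). LRRC8B had a log2 fold change of 0.26 (-0.037 to 0.55, adjusted p = 0.212). WNK1 had a narrow interval (0.06, -0.066 to 0.19, adjusted p = 0.512). That of AQP5, a water channel, spanned -1.55 to 0.18 (adjusted p = 0.258).

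The second comparison asked what the TRPV4 hairpin did at 8 cP. The shTRPV4 cells held less LRRC8A and SLC12A4 RNA than SC cells at the same viscosity, and more LRRC8B RNA. These 3 of 9 members passed the test, against 20.0% of all genes. A rise was called for 1 (9.02% of all genes) and a fall for 2 (11.0% of all genes). The median log2 fold change was -0.014, against 0.00064 for all genes. The fibroblast markers summed to between 4.55 and 5.57 CPM in SC 8 cP cells and, without overlap, to between 6.00 and 7.29 CPM in shTRPV4 cells. Of these markers only LUM, a matrix proteoglycan, passed the test (log2 fold change 1.09, adjusted p = 0.000917). PDGFRB, which made most of the sum, overlapped between the groups and did not pass (0.21, adjusted p = 0.210). DCN had at most 1 count in any sample of these groups. The leukocyte and endothelium sums overlapped between these groups, and the part of the markers in the members' changes was not tested.

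LRRC8A was at 176, 168 and 171 CPM in shTRPV4 cells, below each of the SC samples given above. The fall was 17.8% in the fit, a log2 fold change of -0.28 ± 0.040 (SE, 95% interval -0.37 to -0.20, adjusted p = 0.000159), and the call held in all 16 alternative analyses. SLC12A4 was at 69.2, 66.1 and 65.5 CPM, again under every SC sample, with a log2 fold change of -0.15 ± 0.045 (SE, adjusted p = 0.0302). Its call was lost on leaving out any SC 8 cP sample, or shTRPV4 replicate 2 or replicate 3.

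LRRC8B, a scarce subunit, was at 1.90, 2.28 and 2.37 CPM in SC 8 cP cells and at 3.21, 2.96 and 2.51 CPM under the hairpin. Its log2 fold change was 0.41 ± 0.13 (SE, 95% interval 0.12 to 0.69, adjusted p = 0.0417). The call was lost on leaving out SC 8 cP replicate 1 or replicate 2, or shTRPV4 replicate 1 or replicate 2. LRRC8D, SLC12A2, AQP3 and WNK1 had log2 fold changes of 0.16, 0.12, 0.13 and -0.057 and did not pass. AQP5 had 39, 69 and 21 counts in SC 8 cP cells and 9, 31 and 22 counts in shTRPV4 cells, which overlap. Its log2 fold change was -0.89 with a wide interval (95% interval -1.85 to 0.073, edgeR adjusted p = 0.190), and it did not pass. Among the alternative analyses it passed only without the filter on low counts (adjusted p = 0.0416). LRRC8C did not pass either (-0.014, adjusted p = 0.928).

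The third comparison set shTRPV4 8 cP cells against SC 0.77 cP cells. It shares its samples with those above, and viscosity and hairpin cannot be told apart in it. The leukocyte markers summed to between 3.09 and 4.20 CPM and those of endothelium to between 2.16 and 2.54 CPM in shTRPV4 cells, below every SC 0.77 cP sample, while the fibroblast sums overlapped. Their part in the calls was not tested. It called 7 of 9 members, against 42.4% of all genes: 3 higher (20.4% of all genes) and 4 lower (22.0% of all genes). The higher members were LRRC8B (log2 fold change 0.66, adjusted p = 0.00105), LRRC8D (0.55, adjusted p = 2.09e-05) and SLC12A2 (0.43, adjusted p = 0.000298). The lower were LRRC8A (-0.41, adjusted p = 1.58e-06), SLC12A4 (-0.28, adjusted p = 0.000132), AQP3 (-0.45, adjusted p = 0.00226) and AQP5. AQP5 had 65, 61 and 57 counts in SC 0.77 cP cells, all above the 9, 31 and 22 of shTRPV4 cells, and fell with a log2 fold change of -1.57 ± 0.44 (SE, 95% interval -2.51 to -0.64, adjusted p = 0.00910). WNK1 had a log2 fold change of 0.0051 (95% interval -0.12 to 0.13). The 7 calls held in each alternative analysis that gave a value, GC correction included.

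**Figure D3:**
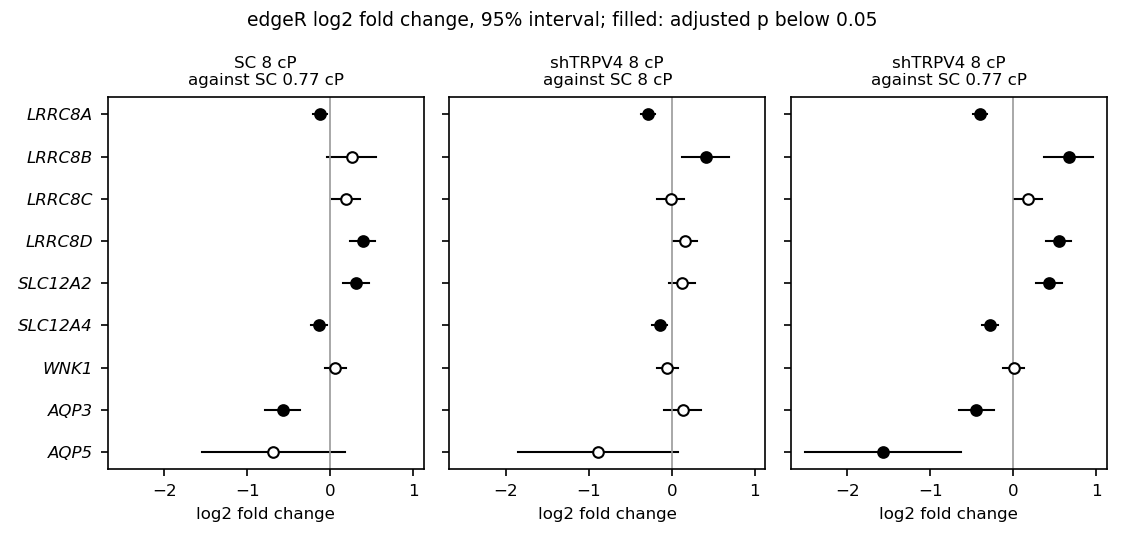
Log2 fold change (edgeR, first group minus second) of the 9 members in the 3 comparisons. Points are estimates, lines are 95% intervals, and filled points have an adjusted p below 0.05. LRRC8A and SLC12A4 lie left of 0 in each panel, WNK1 lies near 0 in each, and AQP5 has the widest interval.

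Within each sample, the make-up of the LRRC8 family differed between groups. LRRC8A made 86.5 ± 0.630% (SD, n = 3) of the summed LRRC8 CPM per kb in SC 0.77 cP cells, 82.4 ± 1.13% at 8 cP and 77.9 ± 0.424% in shTRPV4 cells. LRRC8D made 9.14 ± 0.611%, 12.5 ± 0.914% and 16.0 ± 0.0310%. The groups did not overlap in either share. The sum itself was 50.5 ± 1.36, 48.6 ± 0.519 and 42.3 ± 1.11 CPM per kb. Both shares are parts of this 1 sum, so they do not vary independently. LRRC8D itself did not pass the test for the hairpin (log2 fold change 0.16, edgeR adjusted p = 0.131). LRRC8B and LRRC8E were each under 1% in every sample. LRRC8B, LRRC8C and LRRC8D are neighbours on 1 strand of chromosome 1, between 89524829 and 89936611, whereas LRRC8A lies on chromosome 9 (128882133 to 128918039, GRCh38). LRRC8D shares 6.78% and LRRC8C 2.77% of exon bases with ENSG00000271949 on their strand, and LRRC8B shares 11.1% with LRRC8C-DT on the other strand. LRRC8E shares 74.3% with an antisense gene, and because the counting's strand setting is unstated its counts are uncertain. SLC12A4 shares 4% with LCAT on its strand.

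The ratio of SLC12A2 to SLC12A4, an importer to 1 of the exporters, in CPM per kb was 0.211 ± 0.0170 (SD, n = 3) in SC 0.77 cP cells. It was 0.287 ± 0.0204 in SC 8 cP cells and 0.345 ± 0.0209 in shTRPV4 cells, without overlap of samples. SLC12A2 itself did not pass the test for the hairpin (log2 fold change 0.12, edgeR adjusted p = 0.286). SLC12A7 (KCC4), also a KCC cotransporter, is not in this ratio and stood above SLC12A4, at 11.9, 11.0 and 12.2 CPM per kb in the 3 groups. For the hairpin its log2 fold change was 0.14 (adjusted p = 0.0522), opposite in sign to that of SLC12A4. These shares and ratios are descriptions with no test, and AT-rich genes are set against GC-rich ones in each of them.

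**Figure D4:**
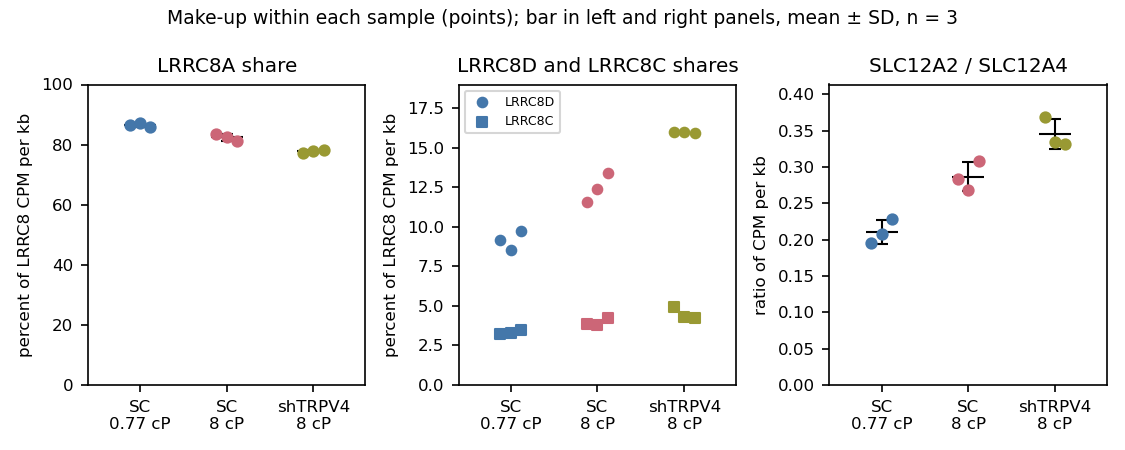
Share of LRRC8A (left) and of LRRC8D and LRRC8C (middle) in the summed CPM per kb of the LRRC8 family, in percent, and ratio of SLC12A2 to SLC12A4 in CPM per kb (right). Points are samples of SC 0.77 cP cells, SC 8 cP cells and shTRPV4 8 cP cells, and bars in the left and right panels are mean ± SD (n = 3). The mean share of LRRC8A is 86.5% in the first group and 77.9% in the last, and that of LRRC8D 9.14% and 16.0%.

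The wider machinery was read from 8 lists of 71 genes that hold the members too, and 54 of them were tested. These lists too were chosen with earlier results of these data known, so the shares below are descriptions. Outside the members, 15 of 45 tested genes passed for viscosity (6 higher, 9 lower), or 33.3% against 19.3% of all genes. For the hairpin 15 of 45 passed (7 higher, 8 lower), or 33.3% against 20.0%, and for both together 25 of 45 (10 higher, 15 lower), or 55.6% against 42.4%. Their median log2 fold changes were -0.033, 0.0095 and -0.059, against -0.0065, 0.00064 and -0.011 for all genes.

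Among the WNK kinases, their effectors and their degradation, 5 of 12 tested genes passed for viscosity (41.7%, against 19.3% of all genes) and 7 of 12 for the hairpin (58.3%, against 20.0%). SGK1, a kinase that controls sodium transport, dropped at 8 cP, from 52.8 ± 4.32 to 20.8 ± 0.787 CPM (SD, n = 3; log2 fold change -1.34, adjusted p = 1.21e-09). It was at 24.6 ± 1.25 CPM in shTRPV4 cells, a rise against SC 8 cP cells (log2 fold change 0.24, adjusted p = 0.0149). NEDD4L, a ubiquitin ligase for sodium channels, rose with viscosity (0.26, adjusted p = 0.0122) and in shTRPV4 cells (0.23, adjusted p = 0.0199). KLHL3, an adaptor for WNK degradation, fell in shTRPV4 cells (-1.14, adjusted p = 0.000917).

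Of 9 cation-chloride cotransporters 7 were tested. SLC12A7 (KCC4) was at 71.3 CPM in SC 0.77 cP cells and SLC12A9 at 31.5 CPM. SLC12A9 rose in shTRPV4 cells (0.38, adjusted p = 0.000166), as did SLC12A8 (0.30, adjusted p = 0.0484). SLC12A1 and SLC12A3 had at most 1 count in any sample.

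Of 14 aquaporins 5 were tested. AQP1, a water channel, was at 10.1 ± 1.75 CPM in SC 0.77 cP cells and at 6.65 ± 0.540 CPM at 8 cP (SD, n = 3; log2 fold change -0.59, adjusted p = 0.00517). It fell with AQP3 and with AQP6 (-1.45, adjusted p = 0.0495, at 6 to 42 counts). AQP1 shares 27.9% of its exon bases with ENSG00000250424 on its strand. AQP11, an aquaporin of internal membranes, rose in shTRPV4 cells (0.66, adjusted p = 0.00412). The other 9 aquaporins had at most 11 counts in any sample.

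ATP1B3, a subunit of the sodium-potassium pump, rose with viscosity (0.27, adjusted p = 0.00718). Of 6 genes of osmolyte accumulation 2 fell with viscosity (33.3%, against 9.69% of all genes called lower): SLC38A2, a neutral amino acid carrier (-0.66, adjusted p = 6.05e-07), and NFAT5, the factor of the hypertonic response (-0.29, adjusted p = 0.0290). SLC6A6, the taurine carrier, fell in shTRPV4 cells (-0.28, adjusted p = 0.00327). Among the listed potassium and chloride channels, KCNN4, a calcium-activated potassium channel, fell in both (-0.23, adjusted p = 0.00307, and -0.30, adjusted p = 0.000277). PACC1 and ANO1, chloride channels, passed only against SC 0.77 cP cells (0.29, adjusted p = 0.00157, and -2.11, adjusted p = 0.00671, the latter at 2 to 22 counts).

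Of 9 genes of sodium-proton and bicarbonate exchange, 3 passed for viscosity (33.3%, against 19.3% of all genes) and 2 for the hairpin (22.2%, close to the 20.0% of all genes). CA9 and CA12, carbonic anhydrases at the cell surface, fell with viscosity and again in shTRPV4 cells. The log2 fold changes were -0.59 (adjusted p = 0.0123) and -1.31 (adjusted p = 4.06e-05) for CA9, and -0.43 (adjusted p = 0.00696) and -0.75 (adjusted p = 8.49e-05) for CA12. CA9 shares 35.7% of its exon bases with ARHGEF39 on the other strand. SLC4A7, a sodium-bicarbonate importer, rose with viscosity (0.23, adjusted p = 0.0152).

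Some of these calls were lost when 1 sample was left out, which leaves fewer samples for the test. For viscosity, CA9 and NEDD4L lost theirs without SC 0.77 cP replicate 1, SC 0.77 cP replicate 2 or SC 8 cP replicate 3, NFAT5 without any of these or SC 8 cP replicate 1, CA12 without SC 0.77 cP replicate 1, and SLC4A7 without SC 8 cP replicate 3. NEDD4L lost its call for the hairpin without SC 8 cP replicate 1 or replicate 2, and SGK1 without SC 8 cP replicate 1 or shTRPV4 replicate 2 or replicate 3. The calls of AQP6 for viscosity and SLC12A8 for the hairpin, both close to the threshold, were lost in 10 of 14 and 11 of 16 alternative analyses. The calls of SGK1, SLC38A2, KCNN4 and AQP1 for viscosity held in all 16.

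**Figure D5:**
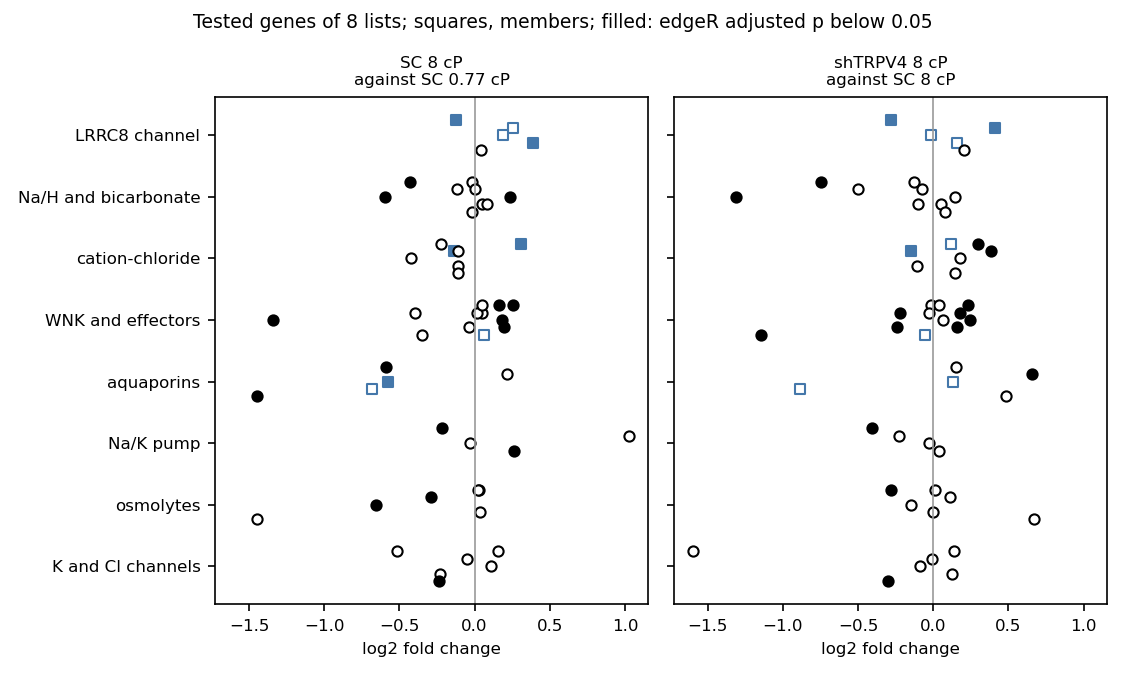
Log2 fold change of the 54 tested genes of the 8 lists in SC 8 cP cells against 0.77 cP (left) and in shTRPV4 against SC 8 cP cells (right). Squares are the members, circles the other genes, and filled symbols have an edgeR adjusted p below 0.05. Among the filled symbols of the left panel, AQP6 (-1.45) and SGK1 (-1.34) lie farthest left.

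The genes whose log2 CPM ran most like a member's over the 9 samples were taken from 10698 genes of at least 5 CPM. They were CPT1A for SLC12A2 (Pearson r = 0.997), BCAR3 for LRRC8A (0.993), ERCC6L for LRRC8D (0.989), PIAS1 for LRRC8B (0.987), DNM2 for SLC12A4 (0.984), C12orf76 for AQP5 (0.981) and NR1H3 for AQP3 (0.981). These values were picked as the highest of many, the samples share groups, and no test was made.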

How the data were processed

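RNA of MDA-MB-231 cells was sequenced in 3 groups of 3 samples. According to the labels and the methods of the study, stranded poly(A) libraries were read as 100 bp pairs, mapped with HISAT2 2.2.1 to GRCh38.p13 and counted per gene of Ensembl 104 with HTSeq 0.13.5. The authors deposited these counts without normalization. The strand option is not given in the sources used here. Of 60664 genes, 60463 were matched to a symbol.

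Counts were TMM-scaled and filtered by filterByExpr in edgeR 4.0.16 (R 4.3.3), and a quasi-likelihood fit took 1 term per group over all 9 samples (common biological coefficient of variation 0.0633). Benjamini-Hochberg adjustment ran over 18264 genes in each comparison. The scripts were tested on simulated data. Alternatives were DESeq2 1.42.0, upper quartile scaling, other filters, only 6 samples, a replicate block, leaving out each sample and, added after seeing the data, GC correction. Positions, exon lengths and GC come from GENCODE 44, promoters from RefSeq (GRCh38.p14), with the start nearest that of GENCODE.

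Named genes were all members, TRPV4, the members' relatives, up to 3 further called genes of each list with the smallest adjusted p, and the most similar gene of 3 per called member. Members and lists were chosen with earlier results of these data known. A few genes of these lists are not reported here.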

Additional observations from a re-analysis of the deposited data

How the results depend on the processing

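Over the 9 members and 3 comparisons, 429 values were recomputed under 16 alternatives. Of these, 382 kept their direction and their side of the threshold, 32 kept the direction and lost the call, 7 gained a call and 8 changed sign. With GC correction the members called for viscosity numbered 3. Leaving out 1 sample at a time gave 1409 to 4349 genes and 2 to 6 members called for viscosity, 2179 to 3836 genes and 1 to 3 members for the hairpin, and 6318 to 7705 genes and 7 to 8 members for both together. The lowest gene counts came without SC 0.77 cP replicate 1 (1409) and SC 8 cP replicate 3 (1418) for viscosity, and without SC 8 cP replicate 2 (2179) and replicate 1 (2361) for the hairpin. SC 0.77 cP replicate 2 gave 1927 for viscosity. Each of these fits leaves an arm of 2 samples.

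Each result that changed sign had not passed the test. With GC correction LRRC8C came to 0.0056 for the hairpin, WNK1 to -0.0078 for both together, and TRPV4 to 0.063 for viscosity. Upper quartile scaling gave WNK1 -0.011. Leaving out single samples gave LRRC8C -0.11 to 0.039 and ATP1B3 -0.018 to 0.073 for the hairpin, WNK1 -0.075 to 0.047 and SLC12A8 -0.053 to 0.18 for both together, and TRPV4 -0.33 to 0.27 for viscosity. The cause was not tested. AQP5 has no value where at least 10 counts were required in every sample.

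Replicate numbers did not pair the samples: deviations of same-numbered samples correlated at -0.17 to 0.27 and those of other pairs at -0.24 to 0.27. With the replicate block 3475, 3607 and 7731 genes and 5, 2 and 7 members were called, LRRC8B losing its call for the hairpin. Low counts limit AQP5, AQP6 and ANO1.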
